A study of Mus musculus with 10 samples.

Results

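The glutathione transferases and antioxidant enzymes described here are 44 genes picked by symbol, with earlier results of these data known, among 24454 genes counted in brown adipose tissue (BAT), a thermogenic fat rich in mitochondria. All 44 were among the 13568 genes that passed a filter on low counts. Their symbols were matched in the study's own comparison, made after the same filter, so that they passed was fixed in advance. Related genes that did not pass, such as Gsta1 and Gpx2, are not among the 44. RNA-Seq compared 5 control and 5 Stat5Adipoq libraries, all labelled basal, from male C57BL/6N mice, aged 2 months and fed ad libitum. Stat5Adipoq mice lack the transcription factors STAT5A and STAT5B in adipocytes, through floxed Stat5 alleles and a Cre recombinase driven by the adiponectin promoter, which is active in white as well as brown fat. The controls, labelled wild type in the sample records, were described in the study's methods as floxed littermates without Cre. Other cells of BAT keep Stat5, and the sources used here do not state whether each replicate was 1 mouse. The p-values therefore set the genotype difference against the spread between these libraries, which may not be the spread between mice.

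Glutathione and the thioredoxin system are the main routes by which cells reduce peroxides and conjugate reactive lipids. Glutathione is built from glutamate, cysteine and glycine by glutamate-cysteine ligase (Gclc, Gclm) and glutathione synthetase (Gss). Glutathione transferases attach it to electrophiles, glutathione peroxidases use it to reduce hydroperoxides, and glutathione reductase (Gsr) restores it at the cost of NADPH. Thioredoxins and their reductases do the same work for peroxiredoxins, superoxide dismutases supply the hydrogen peroxide that these enzymes remove, and the transcription factor NRF2 (Nfe2l2), held down by KEAP1, induces many of the genes. Brown adipocytes hold many mitochondria and much oxidisable lipid, both of which these systems act on.

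Libraries held 8488129 to 19514904 counts on genes. As a check of the labels, Stat5a was 86.9 to 130.4 CPM (counts scaled to library depth by the TMM method) in control and 15.8 to 20.7 CPM in Stat5Adipoq libraries, and Stat5b was 76.6 to 91.9 and 21.0 to 22.9 CPM. All 13 brown adipocyte markers were counted in every library, with summed levels of 19720 to 30940 CPM in control and 21730 to 27250 CPM in Stat5Adipoq. 1 library stood apart: in control replicate 3, the 12 skeletal muscle markers summed to 4097 CPM against 37.5 to 374.5 CPM in the other 9 libraries, and the 12 liver markers to 120.1 CPM against 11.8 to 19.7 CPM. For the 44 genes, calls that change without this library are given both ways, and the related genes and markers were not refitted without it. Summed markers of macrophages, endothelium, fibroblasts and red cells had overlapping ranges in the genotypes, and 4 adult globin genes were at 0 counts in all 10 libraries. Alas2, another red cell marker, was counted in every library, so the globin zeros do not show that blood was absent. Why the globins had no counts was not tested. Among these marker lists edgeR called Cox7a1 alone, a subunit of the respiratory chain, at a log2 fold change of 0.29 (adjusted p = 0.040), and DESeq2 called 5 of the muscle markers as lower.

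Of the 44 genes, 2 were higher and 4 were lower in Stat5Adipoq BAT (edgeR quasi-likelihood test, adjusted p under 0.05 over all 13568 genes). The higher genes were Gstm1 and Gsta4, both soluble glutathione transferases. The lower genes were Gpx8, Gpx3, Mgst1 and Txn1, which are 2 glutathione peroxidases, a membrane-bound glutathione transferase and the cytosolic thioredoxin. The other 38 were not called. Over all genes, 2.71% were called, with 1.40% higher and 1.31% lower. The median log2 fold change of the 44 genes was -0.0012 and 22 of them were below 0, beside a median of -0.0028 and 50.8% below 0 over all genes. In bulk tissue, fewer cells of a type and less RNA per cell cannot be told apart.

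**Figure D1:**
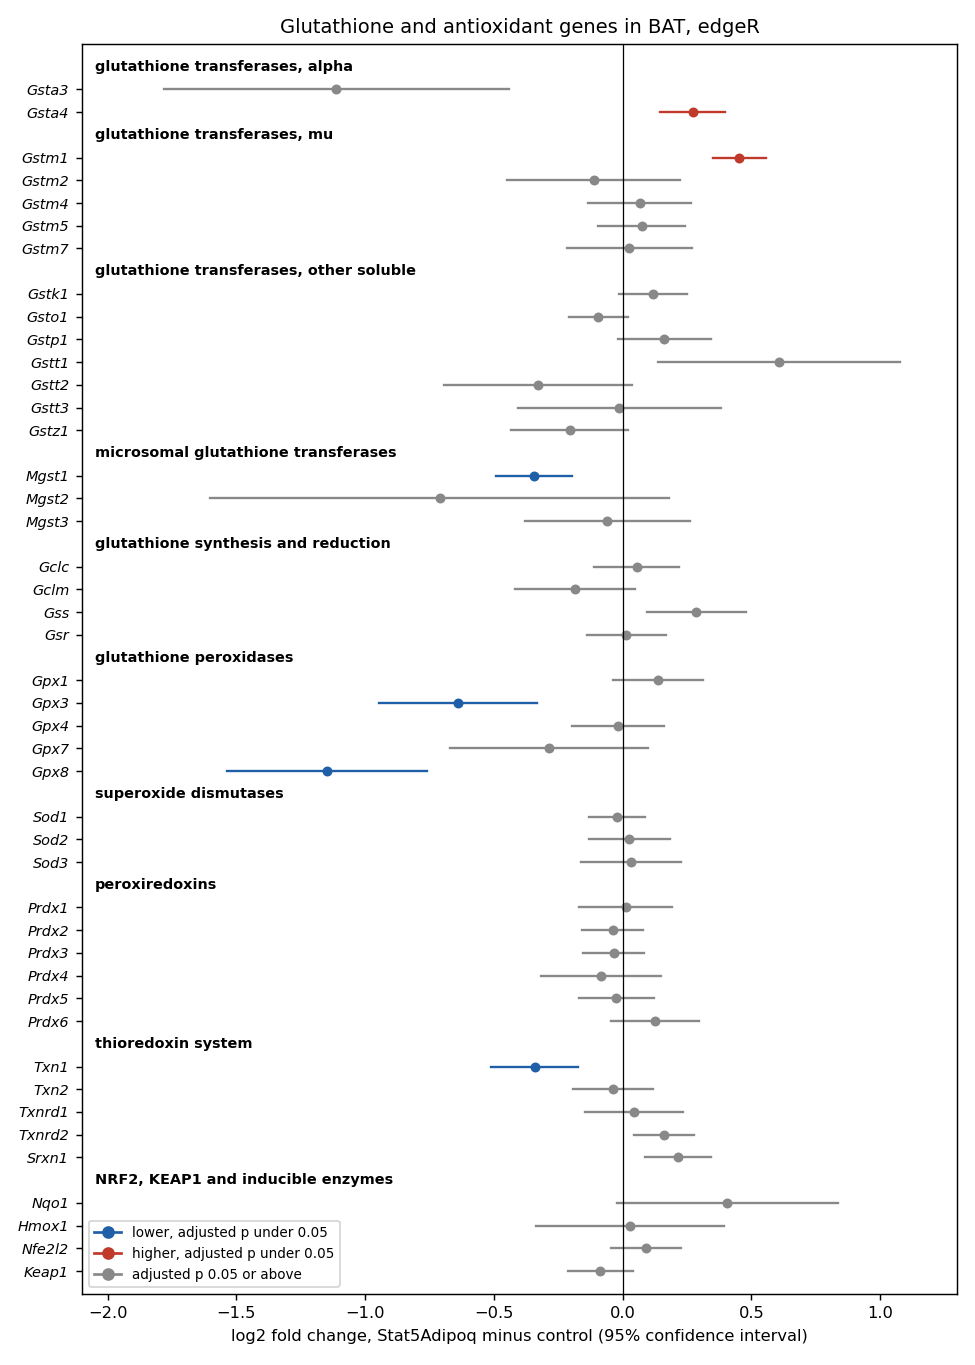
log2 fold change (Stat5Adipoq minus control, x axis) of the 44 genes, grouped by role (y axis), with 95% confidence intervals from edgeR. Blue points are the 4 genes called lower, red points the 2 called higher, and grey points the 38 not called; peroxiredoxins and superoxide dismutases sit close to 0.

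11 of the 44 genes had an unadjusted p under 0.05, against 15.2% of all genes. In 7 genes the libraries of the genotypes did not overlap, against 4.39% of all genes: Gpx8, Mgst1 and Gsta3 lay lower, and Gstm1, Gsta4, Srxn1 and Gss lay higher. DESeq2 called 8 of the 44, against 4.86% of all genes, adding Gsta3 as lower and Srxn1 as higher. Of the 38 genes not called by edgeR, 24 had a 95% interval that stayed within 25% of the control level either way, and 34 stayed within 50%. Intervals of 33 of the 38 included 0.

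Promoter windows from RefSeq (GRCm38.p6) ran from 250 bases before to 50 bases after an annotated start, 300 bases in all. All 44 genes have a position in RefSeq, but Gstt2, Prdx6, Gclc, Gsr, Hmox1, Gsta4 and Sod3 had no window. The other 37 genes had 48 windows. They were searched on both strands for a core of the antioxidant response element to which NRF2 binds, TGACNNNGC, and for the STAT5 consensus TTCNNNGAA, which reads the same on both strands. A form of that core with G in place of its first C was not searched. The windows of Srxn1 and Gstp1 hold that form (tgagtcagc), unmarked and not counted. The STAT5 letters were in 7 of the 48 windows (14.6%), from 6 genes, and in 8.3% of all 32851 windows. The antioxidant letters were in 10 windows (20.8%), from 10 genes, and in 12.4% of all windows. Matches of the motifs did not overlap in the printed windows.

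The windows of Gpx8 (chr13:113046339-113046638, minus strand) and Mgst1 (chr6:138140277-138140576 and chr6:138141337-138141636, plus strand) are shown because they are the called genes that hold either motif. Txn2 (chr15:77928945-77929244, minus strand) is shown because it holds the STAT5 letters and was not called, and Srxn1 (chr2:152105274-152105573, plus strand) because it holds the antioxidant letters and was called higher by DESeq2 but not by edgeR. Each is 5′ to 3′ on the strand of the gene, and capitals mark the matched motif, the STAT5 consensus in Gpx8, the second Mgst1 window and Txn2, and the antioxidant core in the first Mgst1 window and Srxn1.
Gpx8: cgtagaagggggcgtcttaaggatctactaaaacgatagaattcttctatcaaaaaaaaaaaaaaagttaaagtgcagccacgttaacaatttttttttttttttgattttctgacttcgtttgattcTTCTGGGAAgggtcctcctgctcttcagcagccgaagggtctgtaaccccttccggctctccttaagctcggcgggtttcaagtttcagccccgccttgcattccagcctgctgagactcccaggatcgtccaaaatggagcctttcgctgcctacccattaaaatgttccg
Mgst1, first window: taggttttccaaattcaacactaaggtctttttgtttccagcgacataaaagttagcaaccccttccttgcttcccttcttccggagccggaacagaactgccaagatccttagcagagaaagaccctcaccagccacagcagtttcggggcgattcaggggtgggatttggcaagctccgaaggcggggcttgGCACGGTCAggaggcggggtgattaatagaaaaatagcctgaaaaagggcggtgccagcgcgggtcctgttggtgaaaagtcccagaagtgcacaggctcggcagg
Mgst1, second window: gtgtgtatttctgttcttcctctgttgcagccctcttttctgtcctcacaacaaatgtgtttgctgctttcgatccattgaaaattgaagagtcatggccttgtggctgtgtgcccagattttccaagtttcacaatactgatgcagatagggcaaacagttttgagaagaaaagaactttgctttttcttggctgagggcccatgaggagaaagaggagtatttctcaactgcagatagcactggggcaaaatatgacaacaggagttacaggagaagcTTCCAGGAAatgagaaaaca
Txn2: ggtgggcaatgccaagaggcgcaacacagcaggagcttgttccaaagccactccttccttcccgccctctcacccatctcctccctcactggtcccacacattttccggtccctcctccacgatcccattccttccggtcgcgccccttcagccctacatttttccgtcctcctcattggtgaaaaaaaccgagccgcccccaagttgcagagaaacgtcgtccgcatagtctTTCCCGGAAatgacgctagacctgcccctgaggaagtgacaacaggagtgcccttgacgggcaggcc
Srxn1: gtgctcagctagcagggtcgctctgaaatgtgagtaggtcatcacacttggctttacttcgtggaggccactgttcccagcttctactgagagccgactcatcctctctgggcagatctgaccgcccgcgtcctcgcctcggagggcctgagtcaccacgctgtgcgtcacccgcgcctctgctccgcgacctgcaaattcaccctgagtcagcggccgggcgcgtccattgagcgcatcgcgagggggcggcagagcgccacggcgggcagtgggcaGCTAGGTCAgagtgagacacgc
The match TTCTGGGAA starts at position 129 of the Gpx8 window, TTCCAGGAA at position 281 of the second Mgst1 window, and TTCCCGGAA at position 234 of the Txn2 window, counted from the first printed base. The STAT5 letters were also in windows of Mgst2, Sod2 and Txnrd1, none of them called. The antioxidant letters were also in windows of Gclm, Gsta3, Gstm5, Gstm7, Nfe2l2, Prdx1, Sod1 and Txnrd1, none called by edgeR. Windows of Gstm1, Gpx3 and Txn1 held neither set of letters. A match in such a window is a description of its letters, and binding was not measured here.

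The members spanned a wide range of levels. Per kilobase of exon, the control mean ran from 1.10 CPM per kb for Nqo1, an NRF2-induced quinone reductase, to 1141 CPM per kb for Gpx3, the secreted peroxidase of plasma. After Gpx3 came Sod1 at 467.0, Mgst1 at 429.6, Prdx3 at 330.9, Txn2 at 325.5 and Gpx1 at 249.5 CPM per kb. Prdx3 and Txn2 are the mitochondrial peroxiredoxin and thioredoxin. In Stat5Adipoq BAT, Gpx3 was still the highest of the 44, at 732.2 CPM per kb.

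**Figure D2:**
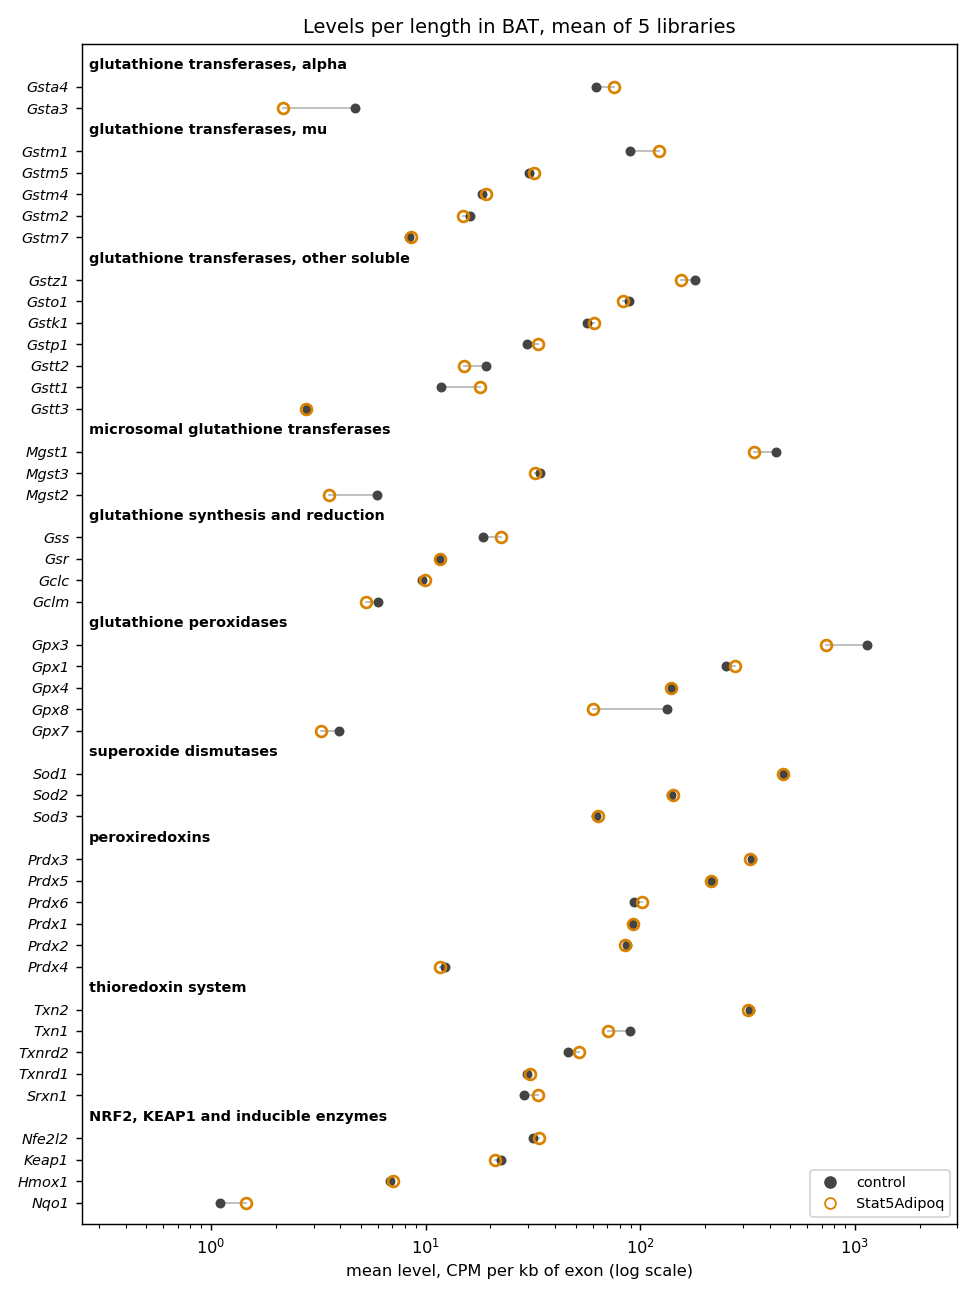
Mean CPM per kb of exon (x axis, log scale) of each of the 44 genes (y axis, by role) in 5 control (filled) and 5 Stat5Adipoq (open) libraries, joined by a line. Gpx3 is the highest gene in both, at 1141 and 732.2 CPM per kb, and Nqo1 the lowest.

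Gstm1 showed the smallest adjusted p of the 44. It encodes a mu class transferase that conjugates electrophiles and lies in a cluster of related genes on chr3 (Entrez 14862, chr3:108012250-108017973, GRCm38.p6). Control replicates 1 to 5 gave 116, 121, 111, 113 and 116 CPM for Gstm1, and Stat5Adipoq replicates 1 to 5 gave 155, 156, 155, 161 and 165 CPM. All 5 Stat5Adipoq libraries lay above all 5 controls, and the spread within a genotype was the narrowest of any member (coefficient of variation 3.26% and 2.83%). The log2 fold change was 0.45 ± 0.05 (SE, n = 5 and 5), 36.9% above control (adjusted p = 0.00050, edgeR). Of the 50-base words in its transcript, 23.1% also occur in transcripts of other genes, most of all of a related pseudogene, Gstm2-ps1. Reads from these stretches could not be assigned to 1 gene by sequence.

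The other 4 mu genes of the list gave no call. Gstm2, Gstm4, Gstm5 and Gstm7, neighbours of Gstm1 within the cluster, had log2 fold changes of -0.11, 0.07, 0.07 and 0.03, with adjusted p from 0.73 to 0.95 (edgeR). The difference within the family was tested as the log2 ratio of Gstm1 to each neighbour inside each library, by an exact two-sided permutation test adjusted over all 18 ratios. Each of the 18 ratios includes a gene already called in these libraries, so the p-values are not independent of the calls. The ratios were chosen after the calls were seen, and the smallest p that 5 against 5 allows is 0.0079. The ratio to Gstm2 rose by 0.59 (adjusted p = 0.039), that to Gstm4 by 0.40 (adjusted p = 0.032), that to Gstm5 by 0.38 (adjusted p = 0.032) and that to Gstm7 by 0.44 (adjusted p = 0.032). Gstm1 rose relative to each of these 4 neighbours.

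The alpha class genes went in opposite directions, and edgeR called Gsta4 alone. Gsta4 encodes a transferase known for conjugating 4-hydroxynonenal, a product of lipid peroxidation (Entrez 14860, chr9:78191966-78209349). In replicates 1 to 5, Gsta4 stood at 64.2, 63.6, 60.0, 58.1 and 57.6 CPM in control and at 68.4, 78.9, 76.7, 72.2 and 70.1 CPM in Stat5Adipoq BAT. The genotypes did not overlap, and the log2 fold change was 0.27 ± 0.06 (SE), 20.7% above control (adjusted p = 0.029, edgeR). The call was lost under scaling by library size alone and with a replicate block (adjusted p = 0.068 with the block, edgeR). It was also lost in 6 of 10 fits that left out 1 library: control replicates 4 and 5, and Stat5Adipoq replicates 2 to 5 (adjusted p up to 0.082 over all alternatives).

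Gsta3, an alpha transferase known for detoxifying the aflatoxin epoxide in mouse liver, had a far lower level per length than Gsta4 in control (4.67 against 62.1 CPM per kb). The level of Gsta3 was 6.96, 2.18, 4.62, 2.64 and 1.84 CPM in Stat5Adipoq replicates 1 to 5, beside 7.47, 7.81, 9.86, 7.03 and 7.31 CPM in control replicates 1 to 5. Stat5Adipoq libraries lay below all controls, with replicate 1 close to them and the other 4 spread from 1.84 to 4.62 CPM, on 23 to 139 counts a library. The log2 fold change was -1.11 ± 0.31 (SE) and did not pass in edgeR (adjusted p = 0.087), while DESeq2 (adjusted p = 0.0091) and limma-voom (adjusted p = 0.029) called it. edgeR also called it when Stat5Adipoq replicate 1 was left out (log2 fold change -1.49). Because Gsta4 lay higher and Gsta3 lower without overlap, the outcome of a test of their ratio was fixed in advance. The ratio of Gsta4 to Gsta3 within a library rose by 1.53 on the log2 scale (adjusted p = 0.032, exact permutation test).

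None of the 7 soluble transferases of other classes was called by edgeR or DESeq2, and 1 of them, Gstt1, had an unadjusted p under 0.05. Gstz1, the maleylacetoacetate isomerase of tyrosine breakdown, was the most abundant of them per length. Gstz1 was 429, 406, 355, 329.7 and 361 CPM in control replicates 1 to 5 and 404, 335, 291, 276 and 325 CPM in Stat5Adipoq replicates 1 to 5. The ranges overlapped, with a log2 fold change of -0.21 ± 0.10 (SE, adjusted p = 0.38, edgeR), and 22.8% of its exon bases lie under an exon of the opposite strand. Gstt1, a theta class transferase, had the largest positive fold change of the 44. Control replicates 1 to 5 gave 14.6, 14.8, 7.34, 9.81 and 14.7 CPM for Gstt1, and Stat5Adipoq replicates 1 to 5 gave 26.4, 21.3, 14.8, 15.4 and 15.1 CPM. Its log2 fold change of 0.61 ± 0.22 (SE, adjusted p = 0.19, edgeR) rested on libraries that overlapped. Gstt2 and Gstt3 of the same chr10 cluster, Gsto1, Gstk1 and Gstp1 had log2 fold changes from -0.33 to 0.16. Gstp1 shares 62.3% of its 50-base words with other genes, most of all the near-identical copy Gstp2, and its value is uncertain for that reason.

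Mgst1 encodes a transferase of the endoplasmic reticulum and outer mitochondrial membrane that also reduces lipid hydroperoxides (Entrez 56615, chr6:138140527-138156755). It was the third most abundant member in control. In replicates 1 to 5, Mgst1 stood at 489.8, 519.5, 529, 512 and 456 CPM in control and at 446, 408, 380.0, 355 and 386 CPM in Stat5Adipoq BAT. The genotypes did not overlap, with control replicate 5 and Stat5Adipoq replicate 1 lying closest. Mgst1 fell by 21.2%, with a log2 fold change of -0.34 ± 0.07 (SE, adjusted p = 0.020, edgeR). It was called in all 7 other fits, and the call was lost without control replicate 2 or without Stat5Adipoq replicate 3, 4 or 5 (adjusted p up to 0.064).

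Mgst2, which can form leukotriene C4, was at 8 to 55 counts a library. The level of Mgst2 was 4.61, 2.95, 1.38, 0.881 and 0.799 CPM in Stat5Adipoq replicates 1 to 5, beside 3.93, 3.72, 3.25, 2.58 and 4.39 CPM in control replicates 1 to 5. Its Stat5Adipoq libraries ran from below all controls to above them, and the log2 fold change was -0.71 ± 0.41 (SE, adjusted p = 0.46, edgeR). Mgst3 had a log2 fold change of -0.06. The ratio of Mgst1 to Mgst3 differed by -0.27 (adjusted p = 0.17) and that to Mgst2 by 0.66 (adjusted p = 0.17, exact permutation test), so a difference of Mgst1 from its family was not shown.

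The peroxidases held the largest change. Gpx8 and Gpx7 are peroxidases of the endoplasmic reticulum that lack the selenocysteine of the classical enzymes (Gpx8: Entrez 69590, chr13:113042757-113046430). Gpx8 was 164, 125, 147, 173 and 84.1 CPM in control replicates 1 to 5 and 81.8, 60.5, 61.0, 52.5 and 56.6 CPM in Stat5Adipoq replicates 1 to 5. All Stat5Adipoq libraries lay below all controls, although Stat5Adipoq replicate 1 lay just below control replicate 5, and the controls were widely spread (coefficient of variation 25.6%). Gpx8 fell by 54.9%, with a log2 fold change of -1.15 ± 0.18 (SE, adjusted p = 0.0055, edgeR). The call held in all 7 other fits and in all 10 that left out a library, with log2 fold changes from -1.28 to -1.06. Gpx7 had a log2 fold change of -0.29 ± 0.18 (SE, adjusted p = 0.49, edgeR) on a mean of 56 counts.

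Gpx3, the secreted selenium peroxidase, is the member with the most counts (Entrez 14778, chr11:54902854-54910387). Control replicates 1 to 5 gave 2189, 1785, 1329, 2024 and 1764 CPM for Gpx3, and Stat5Adipoq replicates 1 to 5 gave 998, 1084, 1535, 1180.1 and 1038 CPM. The genotypes overlapped through control replicate 3 and Stat5Adipoq replicate 3, and the other 4 of each did not. Gpx3 fell by 35.8%, with a log2 fold change of -0.64 ± 0.14 (SE, adjusted p = 0.032, edgeR). Without control replicate 3, the library with muscle markers, it was -0.73 (adjusted p = 0.0061). Leaving out any library other than control replicate 3 or Stat5Adipoq replicate 3 took the adjusted p to between 0.052 and 0.091. The call was also lost with a replicate block (adjusted p = 0.10, edgeR). Gpx3 made up 17.9 to 27.3% of the summed CPM of the 44 genes in control and 15.0 to 21.2% in Stat5Adipoq. That sum was 7311 to 8018 CPM in control and 6645 to 7227 CPM in Stat5Adipoq, and without Gpx3 it was 5547 to 6081 and 5608 to 5772 CPM, where the genotypes overlapped.

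The other selenium peroxidases were not called. Gpx1, the cytosolic and mitochondrial enzyme, had a log2 fold change of 0.14 (adjusted p = 0.46), and Gpx4, which reduces phospholipid hydroperoxides and guards against ferroptosis, of -0.02 (adjusted p = 0.96, edgeR). Gpx4 shares 61.7% of its 50-base words with other genes, most of all the processed copy Gpx4-ps2. Within libraries, Gpx8 fell by 1.27 relative to Gpx1 and by 1.11 relative to Gpx4 (adjusted p = 0.032 for both). Gpx3 fell by 0.78 relative to Gpx1 (adjusted p = 0.032) and by 0.63 relative to Gpx4 (adjusted p = 0.039, exact permutation tests). These p-values are not independent of the calls of Gpx8 and Gpx3. A difference between Gpx3 and Gpx8 was not shown (0.48, adjusted p = 0.14), nor was one of either from Gpx7 (adjusted p = 0.17 for Gpx3 and 0.071 for Gpx8).

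**Figure D3:**
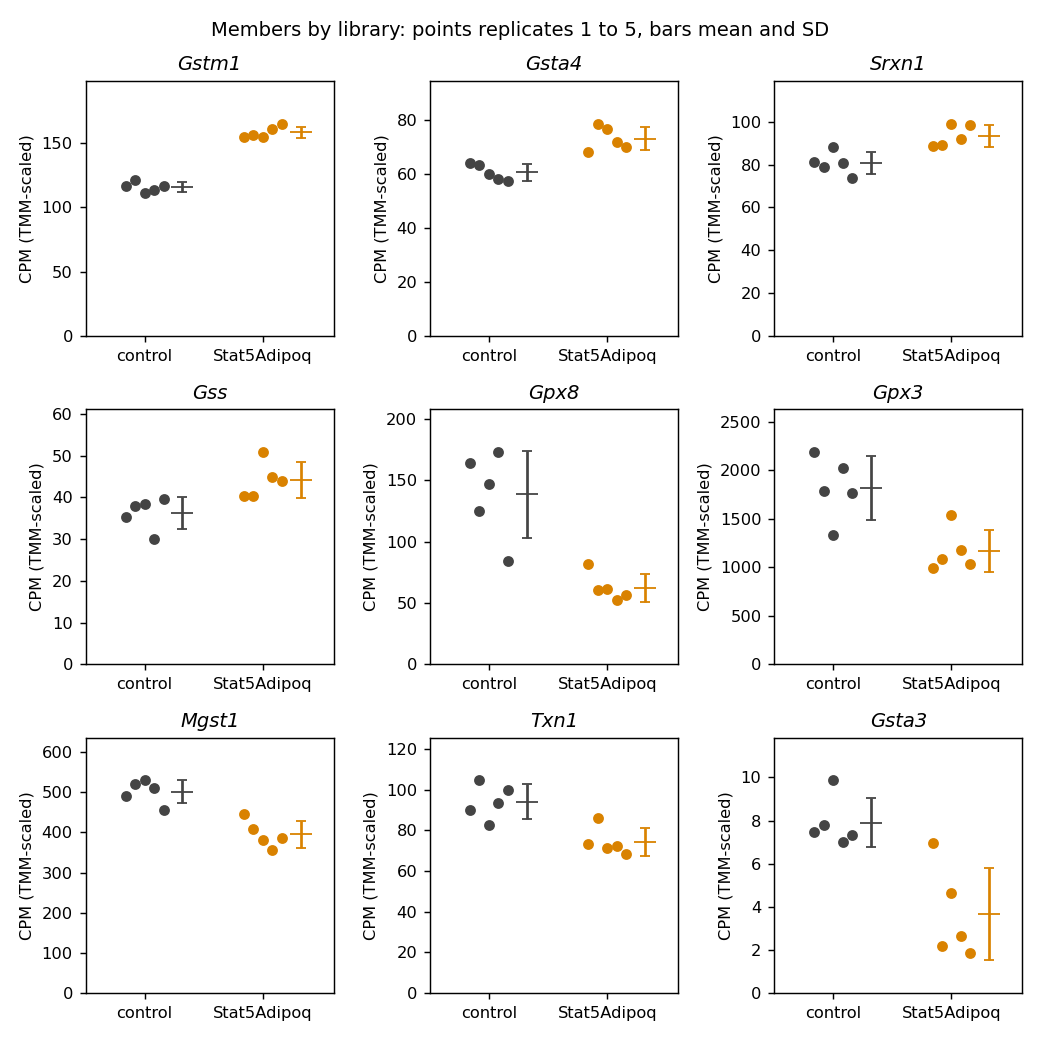
CPM (TMM-scaled, y axis from 0) in each control and Stat5Adipoq library for 9 of the 44 genes, with points for replicates 1 to 5 from left to right and bars for mean and SD. Libraries of the genotypes do not overlap for Gstm1, Gsta4, Srxn1, Gss, Gpx8, Mgst1 and Gsta3, and overlap for Gpx3 and Txn1.

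Of the 4 genes for synthesis and reduction of glutathione, none was called by edgeR or DESeq2, and 1 had an unadjusted p under 0.05. This was Gss, which adds glycine in the last step of synthesis and was the highest of them per length. In replicates 1 to 5, Gss stood at 35.3, 37.9, 38.5, 29.98 and 39.6 CPM in control and at 40.3, 40.3, 50.9, 44.9 and 44.01 CPM in Stat5Adipoq BAT. Stat5Adipoq libraries all lay above the controls by a narrow margin, with a log2 fold change of 0.28 ± 0.09 (SE, adjusted p = 0.13, edgeR). 14.1% of its exon bases lie under an exon of the opposite strand. The ligase subunits Gclc (0.05) and Gclm (-0.19) and the reductase Gsr (0.01) had log2 fold changes with intervals that included 0.

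None of the 3 superoxide dismutases and 6 peroxiredoxins was called by edgeR or DESeq2, and 0 of them had an unadjusted p under 0.05. The fold changes of Sod1, Sod2 and Sod3, the cytosolic, mitochondrial and extracellular enzymes, lay between -0.02 and 0.03 on the log2 scale. The level of Sod1 was 294, 294, 308, 283 and 296 CPM in Stat5Adipoq replicates 1 to 5, beside 302, 307, 289, 318 and 282 CPM in control replicates 1 to 5. The interval of the change in Sod1 ran from -8.59% to 6.33%. Prdx1 to Prdx6, which are cytosolic, mitochondrial, secretory and peroxisomal peroxidases, ranged from -0.08 to 0.13. Prdx3 was 478, 488, 533, 461 and 486 CPM in control replicates 1 to 5 and 466, 455, 463, 498 and 505 CPM in Stat5Adipoq replicates 1 to 5. The ranges of Prdx3 overlapped, and the interval of its change ran from -10.1% to 6.03%.

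Prdx6, which reduces phospholipid peroxides with the help of glutathione, was not called with all 10 libraries and was called when control replicate 3 was left out. Control replicates 1 to 5 gave 227, 208, 287, 224 and 221 CPM for Prdx6, and Stat5Adipoq replicates 1 to 5 gave 248, 247, 254, 261 and 263 CPM. Control replicate 3 was the highest of the 10 libraries and the other 4 controls were the lowest. The log2 fold change was 0.13 ± 0.08 (SE, adjusted p = 0.49) with it and 0.21 (adjusted p = 0.038, edgeR) without it. The part of muscle in that library's value was not tested.

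The thioredoxin system held 1 call. Txn1, the cytosolic thioredoxin, reduces disulfides of peroxiredoxins and many other proteins (Entrez 22166, chr4:57943373-57956411). In replicates 1 to 5, Txn1 stood at 90.0, 104, 82.7, 93.4 and 99.9 CPM in control and at 73.2, 85.9, 71.5, 72.0 and 68.4 CPM in Stat5Adipoq BAT. The ranges met through Stat5Adipoq replicate 2 and control replicate 3, and the other 4 of each did not overlap. Txn1 fell by 21.1%, with a log2 fold change of -0.34 ± 0.08 (SE, adjusted p = 0.037, edgeR). Without control replicate 3 it was -0.38 (adjusted p = 0.015), and leaving out any library other than control replicate 3 or Stat5Adipoq replicate 2 took the adjusted p above 0.05, up to 0.10.

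Txn2, the mitochondrial thioredoxin, was the most abundant of the system per length. The level of Txn2 was 378, 407, 426, 422 and 424 CPM in Stat5Adipoq replicates 1 to 5, beside 414, 392.3, 495, 427 and 384 CPM in control replicates 1 to 5. The ranges overlapped, with a log2 fold change of -0.04 (adjusted p = 0.87, edgeR). Srxn1 encodes sulfiredoxin, which repairs overoxidised peroxiredoxins. Srxn1 was 81.2, 79.1, 88.0, 80.9 and 73.6 CPM in control replicates 1 to 5 and 88.7, 89.1, 99.2, 91.9 and 98.3 CPM in Stat5Adipoq replicates 1 to 5. Its Stat5Adipoq libraries all lay above the controls, the nearest of them just above control replicate 3. The log2 fold change was 0.21 ± 0.06 (SE, adjusted p = 0.087, edgeR), and it was called by DESeq2 (adjusted p = 0.034) and by edgeR without control replicate 3 (0.25, adjusted p = 0.038). The reductases Txnrd1 and Txnrd2 had log2 fold changes of 0.04 and 0.16, neither called. Within libraries, Txn1 fell by 0.50 relative to Txnrd2 and by 0.56 relative to Srxn1 (adjusted p = 0.032 for both, exact permutation test). Its ratios to Txn2 and Txnrd1 did not pass (adjusted p = 0.072 for both). These ratio tests are not independent of the call of Txn1.

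**Figure D4:**
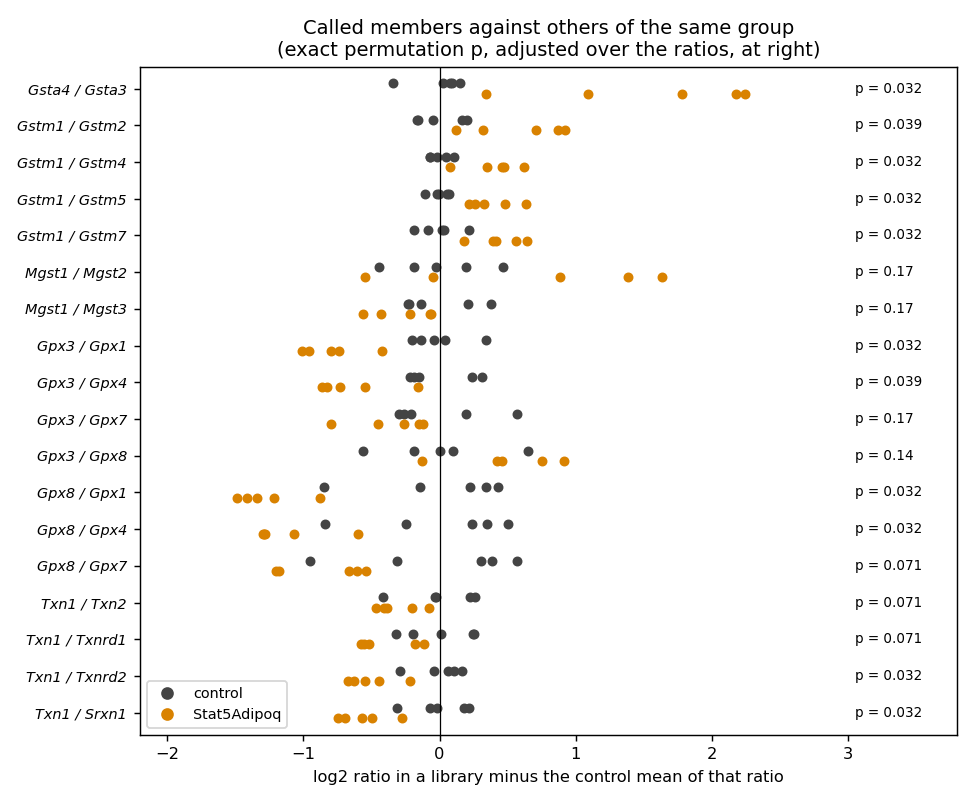
log2 ratio of each called gene to another gene of its group within a library, minus the control mean of that ratio (x axis), for 5 control (grey) and 5 Stat5Adipoq (orange) libraries in 18 ratios (y axis). Exact permutation p adjusted over the 18 is printed at the right, and 11 of 18 are under 0.05. Among the 11 is Gsta4 to Gsta3, whose outcome was fixed in advance. Each ratio includes a gene already called in these libraries, so these p-values are not independent of the calls.

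None of the 4 genes of NRF2, KEAP1 and inducible enzymes was called by edgeR or DESeq2, and 0 had an unadjusted p under 0.05. Nfe2l2 encodes NRF2, and Keap1 the adaptor that targets it for degradation. Control replicates 1 to 5 gave 84.6, 76.5, 74.7, 82.1 and 72.1 CPM for Nfe2l2, and Stat5Adipoq replicates 1 to 5 gave 82.2, 90.8, 76.7, 81.6 and 83.6 CPM. The ranges overlapped, with log2 fold changes of 0.09 for Nfe2l2 (adjusted p = 0.56) and -0.09 for Keap1 (adjusted p = 0.54, edgeR). The classical NRF2 targets Nqo1 and Hmox1, a quinone reductase and a haem oxygenase, had log2 fold changes of 0.41 ± 0.20 and 0.03 ± 0.17 (SE), and Nqo1 had a mean of only 24 counts.

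Genes around these systems were taken from 4 further lists. To set beside each list, edgeR called 2.71% of all 13568 genes and DESeq2 4.86%, and 15.2% had an unadjusted p under 0.05. Of 36 other glutathione genes, 29 were tested, with 1 higher, 1 lower and a median log2 fold change of -0.07; 6 had an unadjusted p under 0.05 and DESeq2 called 2. The higher gene was Abcc4, an exporter of organic anions and cyclic nucleotides, at 36.6 ± 5.30 CPM in control and 57.7 ± 4.10 CPM in Stat5Adipoq (SD, log2 fold change 0.66, adjusted p = 0.0032). The lower gene was Ptges, the glutathione-dependent prostaglandin E synthase, at 25.1 ± 2.65 and 13.2 ± 4.01 CPM (-0.94, adjusted p = 0.020, edgeR). Libraries of the genotypes did not overlap for either gene.

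Of 25 other peroxide and thioredoxin genes, 18 were tested, with 0 higher, 1 lower and a median of -0.02; 3 had an unadjusted p under 0.05 and DESeq2 called 2. Selenow, Selenok, Selenos, Selenop and, in the list before, Gstp3 were untested because these symbols matched no counted gene. Their levels are therefore not known here. The lower gene was Msrb1, a selenoprotein that reduces oxidised methionine, at 55.8 ± 6.27 and 40.6 ± 4.24 CPM (-0.46, adjusted p = 0.020, edgeR). DESeq2 also called Cat, catalase, as higher (0.20, adjusted p = 0.0038), and edgeR did not (adjusted p = 0.062). Cat was 980 ± 55.4 CPM in control and 1127 ± 27.5 CPM in Stat5Adipoq, with no overlap between the genotypes. Of 23 NRF2 partners and further targets, 22 were tested, with 2 higher, 0 lower and a median of 0.07; 7 had an unadjusted p under 0.05 and DESeq2 called 3. The higher genes were Cbr3, a carbonyl reductase, at 2.18 ± 0.68 and 4.32 ± 0.55 CPM (0.97, adjusted p = 0.031), and Akr1b8, an aldo-keto reductase, at 17.8 ± 1.11 and 24.1 ± 3.44 CPM (0.44, adjusted p = 0.036, edgeR). The other 20 tested genes of that list were not called by edgeR, and the third that DESeq2 called was Aox1, an aldehyde oxidase.

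All 13 genes of NADPH supply were tested, with 1 higher, 1 lower and a median of -0.06; 7 had an unadjusted p under 0.05 and DESeq2 called 3, Me3 besides Idh2 and Me1. Idh2, the mitochondrial isocitrate dehydrogenase that makes NADPH, was 332 ± 27.9 CPM in control and 470.4 ± 22.8 CPM in Stat5Adipoq (log2 fold change 0.50, adjusted p = 0.0021). Me1, the cytosolic malic enzyme, was 939 ± 105 and 622 ± 102 CPM (-0.60, adjusted p = 0.016, edgeR). Both differences left no overlap between the genotypes.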

How the data were processed

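RNA of brown adipose tissue was read as single 50-base reads (TruSeq Stranded mRNA libraries, Illumina). Per the labels and the study's methods, the authors aligned reads to GRCm38 with STAR 2.5.0b and counted exon reads per Entrez gene with featureCounts 1.5.0-p1; whether strand was used is not given in the sources used here. The deposited values are raw counts. The authors' own DESeq2 comparison tables hold fold changes and p-values, and only their pairing of symbol and Entrez ID was used.

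Genes were kept where counts divided by DESeq2 size factors summed to more than 45, as in the study. Counts were scaled by TMM and compared with the quasi-likelihood F test of edgeR 4.0.16 (R 4.3.3), with no covariate, adjusted over 13568 genes (Benjamini-Hochberg). DESeq2 1.42.0, limma-voom 3.58.1, other scalings and filters, a replicate block and leaving out each library were alternatives. On simulated data of these libraries (13568 genes, 200 changed), edgeR recovered 78.1% of log2 changes of 1 and 94.2% of changes of 2, with 3.35% of calls false. Smaller changes, like those of most called genes of the list, were not simulated. Libraries of 1 genotype differed by more than counting noise (chi-square per degree of freedom 5.07 to 33.8). None was therefore treated as a copy of another, and all 10 were used. CPM are TMM-scaled. Ratios within a library used log2 of CPM plus 0.1 and an exact two-sided permutation test. Lengths are exon unions of transcripts matched to RefSeq mRNAs, and promoter windows are from RefSeq (GRCm38.p6). 46 of the 48 windows hold the first 30 bases of a transcript of their gene.

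Full values are given for genes called by edgeR, genes whose libraries do not overlap, the 3 largest fold changes among genes with at least 50 mean counts, and the highest gene per length of each role. Gstt1, Mgst2 and Prdx6 were added after their values were seen. The members, the lists of related genes and the marker lists were chosen with earlier results of these data known.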

Additional observations from a re-analysis of the deposited data

Results flagged for a closer look

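In 4 of the 88 groups of 5 libraries examined (44 genes in each genotype), 1 library lay far from the other 4 by Dixon's ratio, and chance alone gives about 4.4 such groups. Gsta3 was 9.86 CPM in control replicate 3, on 82 counts, and 7.03 to 7.81 CPM in the other controls. Prdx6 was 286.6 CPM in the same library and 208.1 to 226.9 CPM in the other controls. Control replicate 3 is the library with skeletal muscle markers at 4097 CPM, whose part in these values was not tested. Gpx8 was 81.8 CPM in Stat5Adipoq replicate 1 and 52.5 to 61.0 CPM in the other Stat5Adipoq libraries. Txn1 was 85.9 CPM in Stat5Adipoq replicate 2 and 68.4 to 73.2 CPM in the other Stat5Adipoq libraries.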

How the results depend on the processing

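Gstm1 and Gpx8 were called in all 7 other fits and in all 10 fits that left out 1 library. Mgst1 was called in 7 and 6 of these, Txn1 in 7 and 2, Gpx3 in 6 and 2, and Gsta4 in 5 and 4. Leaving out 1 library gave 1 to 4 genes of the list lower and 1 to 4 higher, and 86 to 224 of all genes lower and 96 to 219 higher, with the most higher genes of the list (4) without control replicate 3. The lowest count of all genes called (185) came without Stat5Adipoq replicate 3 and the highest (443) without control replicate 3. DESeq2 called 334 genes lower and 326 higher over all genes. Scaling by library size alone left 1 gene of the list higher and called 57.0% of all called genes lower, against 48.4% with TMM. The replicate numbers did not pair the libraries (correlations of same-numbered libraries -0.23 to 0.09, and 2 of 5 controls matched best with their own number). A replicate block left 1 gene of the list higher and 3 lower, without Gsta4 (adjusted p = 0.068, edgeR) and Gpx3 (adjusted p = 0.10), and 273 of all genes, 141 lower and 132 higher. The cause of these changes was not tested.

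Signs turned in 12 genes, none with an absolute log2 fold change above 0.07. Gstt3 was 0.067 with limma-voom and 0.0060 with the replicate block, and under library size alone Gsr was -0.0074 and Prdx1 -0.0087. Over fits that left out 1 library, the log2 fold change ran from -0.15 to 0.10 for Gstt3, -0.019 to 0.046 for Gsr, -0.034 to 0.071 for Prdx1, -0.067 to 0.0078 for Prdx5, -0.067 to 0.082 for Gstm7, -0.068 to 0.026 for Gpx4 and -0.052 to 0.12 for Hmox1. It ran from -0.070 to 0.025 for Txn2, -0.0047 to 0.081 for Sod2, -0.018 to 0.095 for Sod3, -0.15 to 0.0040 for Mgst3 and -0.027 to 0.11 for Gstm4. Low counts limit Nqo1, Mgst2, Gpx7, Gstt3 and Gsta3, at means of 24 to 68 counts.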
